A study of Mus musculus with 24 samples.

Results

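The genes described here make up a module of cholesterol handling: 30 genes, of 41388 in the deposited table, that were chosen by name as the enzymes of cholesterol synthesis, the proteins that control them, and genes of sterol transport and efflux. They fall by role into 5 early mevalonate enzymes, 5 isoprenoid and squalene enzymes, 9 sterol enzymes, 6 regulators and transporters around the SREBP factors, and 5 genes around the LXR receptors. All 30 were found by symbol, and all 30 had enough counts to be tested. Mylip, the member closest to uptake, is a ubiquitin ligase that marks lipoprotein receptors for degradation.

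The libraries were made from pools of macrophages that a cell sorter had taken from the dura, the tough outer covering of the brain, or from the diaphragm, of wild-type C57BL/6 mice aged 17 weeks at steady state. The series title and design text speak of T cells given to RAG-1 deficient mice, whereas every sample label gives a wild-type genotype. The labels do not name the markers used for sorting. The labels put the samples of each tissue in 3 subsets, C1 to C3, with 3 dural and 5 diaphragm samples per subset, but the columns of counts could be tied to the tissue only. Dural columns carry a number (1, 3 or 4) and a mark (P6, P5 or P4) that the labels do not explain, and diaphragm columns carry a number. No label says which columns came from separate animals, so p-values measure the spread between these libraries, which may be technical. In the comparison of the tissues, that spread also takes in the differences between dural marks and between diaphragm libraries of different numbers.

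Cells make cholesterol from acetyl-CoA through mevalonate, isoprenoids, squalene and lanosterol. When membrane sterol is low, the escort protein SCAP carries the precursor of SREBP2 from the endoplasmic reticulum to the Golgi, where it is cleaved into a transcription factor for the synthesis enzymes, and INSIG proteins hold SCAP back when sterol is plentiful. Oxysterols activate the LXR receptors, which raise the efflux pumps ABCA1 and ABCG1, the ligase MYLIP and, through Srebf1, fatty acid synthesis. Macrophages engulf dying cells and lipoproteins and export much of the cholesterol they take in.

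After repeat runs were summed, 16 libraries remained, 9 from dura and 7 from diaphragm. Their totals ran from 10457920 to 24077834 counts in dura (median 12765528) and from 11053351 to 30132295 in diaphragm (median 23498989). Levels are given as CPM, which are counts per 1000000 of a library's total after TMM scaling. The summed level of 7 macrophage markers was 15600 to 20400 CPM in dura and 16800 to 23200 CPM in diaphragm, so these markers were high in both tissues. The markers did not move together. In diaphragm 3, 6 and 9, Lyz2 (12200 to 12800 CPM) and Cd14 (4570 to 5570 CPM) were above all other libraries. Mertk, at 52.3 to 72.4 CPM there, was below all others (78.6 to 219 CPM), and the remaining markers overlapped them. Markers of other cells moved with some libraries. The summed level of 6 fibroblast markers was 2010 to 3650 CPM in dural P4 and 7340 to 15200 CPM in diaphragm 1 and 7, against 238 to 793 CPM in all others. The 5 endothelial markers summed to 844 and 862 CPM in diaphragm 1 and 7 and to 443 and 497 CPM in 2 and 8. They summed to at most 123 CPM in all others. In diaphragm 2 and 8 the highest of them was Cdh5, at 367 and 385 CPM. Of the 6 liver markers, Fgb and Serpina1a were at 0 in every dural library and above 0 in every diaphragm library, and Alb was at 0 to 0.26 CPM in dura and 182 to 534 CPM in diaphragm, whereas Ttr reached 2990 CPM in dura 1P6 and at most 23.6 CPM in diaphragm. The 6 skeletal muscle markers summed to 1.26 to 12.3 CPM in dura and 127 to 282 CPM in diaphragm. The 7 diaphragm libraries formed number sets (1 and 7, then 2 and 8, then 3, 6 and 9) that match no label and are described here without a test.

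Promoter windows show what the synthesis genes share in sequence. RefSeq windows of 300 bases, from 250 before to 50 after a gene's start, were at hand for 25 of the 30 members on GRCm38.p6. Fdps, Fdft1, Sqle, Stard4 and Abcg1 had no entry. The windows were searched on both strands for CCAAT, the box read by NF-Y, which often acts beside SREBP, and for CACCCCAC and TCACNCCAC, forms of the sterol regulatory element. These last forms overlap each other in Hmgcs1. The genes shown are the member with the smallest adjusted p between the tissues (Insig1), 3 enzymes that were lower in dura (Hmgcs1, Mvd and Cyp51), the gene of the factor itself (Srebf2) and the member that was higher in dura (Abca1). Each is written 5′ to 3′ on the strand of the gene, and capitals mark the matches, with CCAAT reading ATTGG on the other strand.
Insig1, chr5:28071162-28071461, plus strand: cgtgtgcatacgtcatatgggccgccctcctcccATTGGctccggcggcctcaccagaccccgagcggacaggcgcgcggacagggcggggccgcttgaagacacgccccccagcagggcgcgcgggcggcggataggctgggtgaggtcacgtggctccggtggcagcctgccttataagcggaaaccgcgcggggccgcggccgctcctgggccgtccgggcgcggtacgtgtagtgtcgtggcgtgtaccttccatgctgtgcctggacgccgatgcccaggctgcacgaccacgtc
Hmgcs1, chr13:119690101-119690400, plus strand: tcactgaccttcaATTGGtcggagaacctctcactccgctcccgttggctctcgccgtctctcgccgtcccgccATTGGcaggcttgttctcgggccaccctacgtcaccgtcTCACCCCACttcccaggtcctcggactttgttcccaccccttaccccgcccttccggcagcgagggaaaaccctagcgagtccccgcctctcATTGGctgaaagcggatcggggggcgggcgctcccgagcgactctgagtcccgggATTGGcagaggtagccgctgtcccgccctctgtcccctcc
Mvd, chr8:122443373-122443672, minus strand: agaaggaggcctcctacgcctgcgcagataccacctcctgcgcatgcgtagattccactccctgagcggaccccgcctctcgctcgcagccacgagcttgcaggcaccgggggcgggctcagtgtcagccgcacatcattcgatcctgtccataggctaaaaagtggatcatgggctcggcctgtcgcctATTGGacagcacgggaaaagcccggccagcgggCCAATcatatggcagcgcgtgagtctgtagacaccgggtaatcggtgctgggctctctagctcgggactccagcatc
Cyp51, chr5:4104648-4104947, minus strand: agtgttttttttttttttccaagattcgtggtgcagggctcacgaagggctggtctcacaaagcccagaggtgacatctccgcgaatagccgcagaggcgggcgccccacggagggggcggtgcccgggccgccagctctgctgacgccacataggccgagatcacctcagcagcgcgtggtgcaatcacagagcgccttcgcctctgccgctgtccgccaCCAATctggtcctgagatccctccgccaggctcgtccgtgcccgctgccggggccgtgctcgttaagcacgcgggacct
Srebf2, chr15:82147019-82147318, plus strand: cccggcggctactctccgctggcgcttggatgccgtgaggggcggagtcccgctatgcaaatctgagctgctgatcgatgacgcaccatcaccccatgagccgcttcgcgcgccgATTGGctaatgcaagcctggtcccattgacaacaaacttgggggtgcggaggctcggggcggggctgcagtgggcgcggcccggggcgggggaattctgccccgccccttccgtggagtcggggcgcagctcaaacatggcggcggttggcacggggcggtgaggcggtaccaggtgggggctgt
Abca1, chr4:53159846-53160145, minus strand: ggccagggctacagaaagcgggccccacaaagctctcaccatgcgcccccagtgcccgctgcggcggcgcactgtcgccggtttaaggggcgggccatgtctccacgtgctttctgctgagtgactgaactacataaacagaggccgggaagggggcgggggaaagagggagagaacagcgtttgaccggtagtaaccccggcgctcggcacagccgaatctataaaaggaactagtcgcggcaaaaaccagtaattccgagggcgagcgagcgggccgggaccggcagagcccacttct

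At least 1 CCAAT was found in 20 of the 25 member genes, which is 80.0%, against 41.1% of 27025 genes in the same table. Those genes were not limited to the ones tested here. Some genes have more than 1 window, and by window CCAAT was found in 21 of 34 member windows, against 37.4% of 32851. Among the 16 members with a window that are targets of SREBP2, 15 held it. Of the 3 targets of LXR with a window, 2 held it. The matches of Insig1 and Cyp51 lie 216 and 29 bases before the start, and Mvd holds 1 on each strand at 60 and 27 bases before it. CACCCCAC was found in Hmgcs1 and Acat2 only, 2 of the 25, against 3.3% of all genes, and TCACNCCAC in Hmgcs1, against 1.44%. No searched motif was found in the window of Abca1. A match is a string of letters and not a bound site, and a window without a match says nothing of the factor.

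Compared with diaphragm macrophages, dural macrophages had less RNA for most of the module. In edgeR's quasi-likelihood test with Benjamini-Hochberg adjustment over 13136 genes, 17 of the 30 members were lower in dura, 1 (Abca1) was higher and 12 did not pass the threshold of 0.05. Of all genes tested, 26.4% were called, 15.3% as lower and 11.2% as higher. The members had a median log2 fold change, dura minus diaphragm, of -0.37, and all genes tested had one of -0.01. In 5 members the libraries of the tissues did not overlap, all lower in dura, against 6.91% of all genes without overlap and 4.38% without overlap and lower. In bulk samples, fewer cells of a type and less RNA per cell cannot be told apart. With the dural libraries summed into 1 per number, 5 members were lower in dura (Mvd, Fdps, Insig1, Nr1h3 and Mylip). Without diaphragm 3, 6 and 9 there were 10. The calls over all genes fell as well, from 3472 to 1259 with the dural libraries summed and to 2847 without diaphragm 3, 6 and 9. With library totals in place of TMM factors, 14 members were lower and 2 higher, while 61% of all called genes were higher in dura, against 42.2% with TMM factors. With upper-quartile factors that share was 54.3%.

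**Figure D1:**
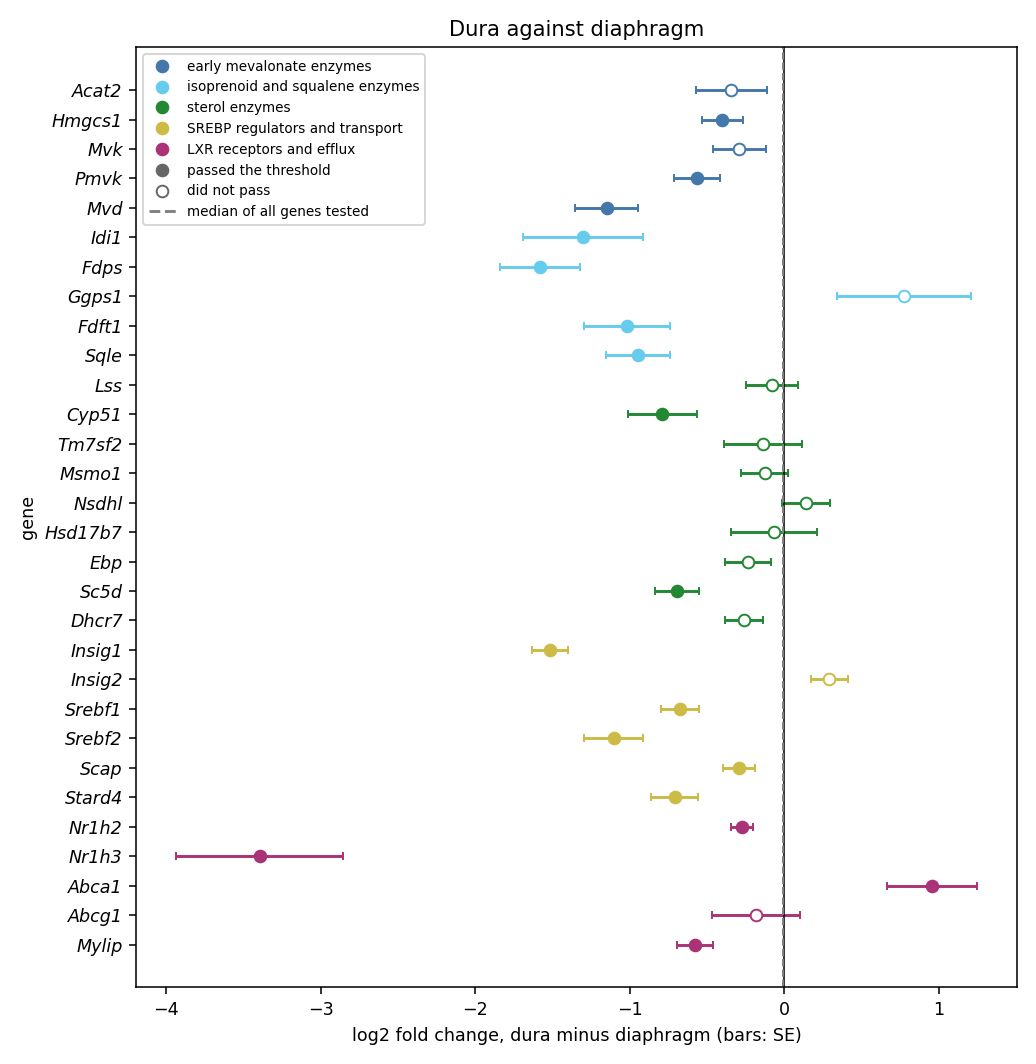
Log2 fold change of each of the 30 members, dura minus diaphragm, with its standard error, coloured by role; filled points passed the edgeR threshold and open points did not. Filled points lie left of 0 for 17 members, with Nr1h3 farthest at -3.40, and right of 0 for Abca1 at 0.96.

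The early mevalonate enzymes build mevalonate and phosphorylate it. Of the 5, 3 were lower in dura, and the group's median log2 fold change was -0.40. Mvd, the decarboxylase that makes the isoprene unit, had 5.2, 8.64 and 11.7 CPM as lowest, median and highest dural values, against 11.1, 20.4 and 25.7 CPM in diaphragm. The ranges met at their edge, where dura 1P6 lay above diaphragm 1. Mvd averaged 8.67 ± 2.04 CPM in dura and 19.2 ± 5.77 CPM in diaphragm (SD, n = 9 and 7), a log2 fold change of -1.15 ± 0.20 (SE, adjusted p = 0.00051). Hmgcs1, the synthase that makes HMG-CoA, had 21.3, 29.2 and 35.1 CPM in dura, against 29.1, 36.7 and 47.5 CPM in diaphragm. These ranges overlapped widely, with only diaphragm 2, 3, 6 and 9 above every dural library. Its log2 fold change was -0.40 ± 0.13 (SE, adjusted p = 0.0324), a call lost in 14 of 32 alternatives. Pmvk, a kinase of the route, was lower, at -0.57 on the log2 scale (adjusted p = 0.0107), and at -0.35 without diaphragm 3, 6 and 9 (adjusted p = 0.165). The thiolase Acat2 and the mevalonate kinase Mvk did not pass, at -0.34 and -0.29. Acat2 has a near-identical neighbour, Acat3, so its reads are uncertain, and 12.1% of the exon bases of Hmgcs1 are shared with an antisense gene.

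Among the isoprenoid and squalene enzymes, 4 of 5 were lower in dura, with a median log2 fold change of -1.02. Fdps (ENSMUSG00000059743, chr3:89093588-89101959, minus strand of GRCm38), which makes farnesyl diphosphate, the branch point between sterols and protein prenylation, had 10.4, 8.34 and 6.25 CPM in dura P6, 4.65, 3.41 and 4.97 CPM in dura P5, and 6.68, 5.2 and 4.65 CPM in dura P4. In diaphragm it had 15.2 and 11.3 CPM in libraries 1 and 7, 12.4 and 11.2 CPM in 2 and 8, and 27.1, 26.6 and 22.9 CPM in 3, 6 and 9. Every diaphragm library lay above every dural one. Means were 6.06 ± 2.16 CPM in dura and 18.1 ± 7.21 CPM in diaphragm (SD, n = 9 and 7), with a log2 fold change of -1.58 ± 0.26 (SE, adjusted p = 0.000293). Without diaphragm 3, 6 and 9 it was -1.02 (adjusted p = 0.011). Of the exon bases of Fdps, 26.7% are also those of a second gene model on the same strand, so its counts are uncertain to that extent.

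Sqle, the squalene epoxidase and a slow step of the route, had 6.57, 9.41 and 15.9 CPM as lowest, median and highest in dura, against 12.4, 17.8 and 32.9 CPM in diaphragm. Its log2 fold change was -0.95 ± 0.21 (SE, adjusted p = 0.0028), and without diaphragm 3, 6 and 9 it was -0.54 (adjusted p = 0.0705). Fdft1, the squalene synthase, was lower, at -1.02 (adjusted p = 0.0127), with 12.3 to 23.9 CPM in diaphragm 3, 6 and 9, and 6.14 to 7.72 CPM in the other diaphragm libraries, a range within that of dura (4.36 to 7.79 CPM). Without diaphragm 3, 6 and 9, the log2 fold change of Fdft1 was -0.23 (adjusted p = 0.467). On the opposite strand, Ctsb overlaps 18.3% of the exon bases of Fdft1, and the kit did not keep strand. The level of Ctsb was 3340 to 3510 CPM in diaphragm 3, 6 and 9, at the low end of all libraries (3340 to 8730 CPM), and its part in the result was not tested. Idi1, the isomerase of the route, rested on 5 to 84 counts per library and was lower, at -1.30 (adjusted p = 0.02), and at -0.80 without diaphragm 3, 6 and 9 (adjusted p = 0.254). Ggps1, which makes the lipid of protein geranylgeranylation and lies off the sterol branch, did not pass, at 10.8 ± 1.31 CPM in dura and 6.30 ± 3.41 CPM in diaphragm (SD, n = 9 and 7). Diaphragm 6 had a count of 1 for it.

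The 9 sterol enzymes turn squalene epoxide into cholesterol. Of these, 2 were lower in dura, and their median log2 fold change was -0.14. Cyp51, the lanosterol demethylase, had 22.1, 30.1 and 38.8 CPM as lowest, median and highest in dura, against 27.3, 37.1 and 78.1 CPM in diaphragm. Only diaphragm 3, 6 and 9, at 57.2 to 78.1 CPM, lay above all dural libraries. The log2 fold change of Cyp51 was -0.79 ± 0.22 (SE, adjusted p = 0.0144), and without those 3 libraries it was -0.18 (adjusted p = 0.494). Sc5d, a late desaturase, averaged 15.8 ± 2.35 CPM in dura and 25.5 ± 5.99 CPM in diaphragm (SD, n = 9 and 7), with a log2 fold change of -0.69 (adjusted p = 0.00166). The other members, namely the cyclase Lss, the reductases Tm7sf2, Hsd17b7 and Dhcr7, the oxidase Msmo1, the dehydrogenase Nsdhl and the isomerase Ebp, did not pass and lay between -0.26 and 0.14. Counts of Tm7sf2 were as low as 33 in a library, and 12.1% of its exon bases are those of Vps51.

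**Figure D2:**
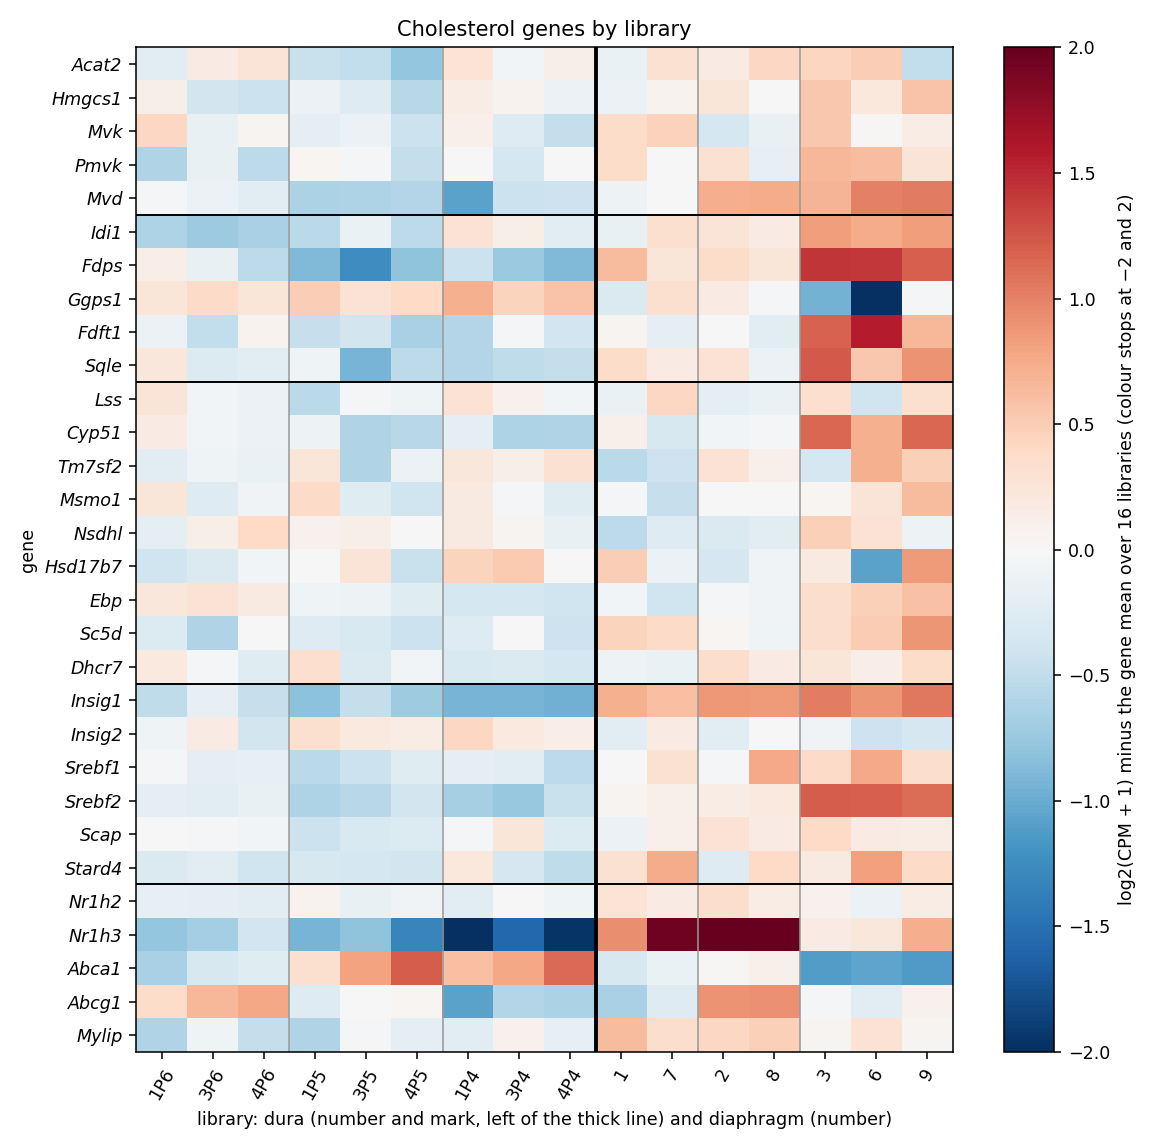
Level of each member in each of the 16 libraries as log2(CPM + 1) minus the gene's mean over libraries, with colour stopped at -2 and 2; rows are ordered by role and the thick line parts dura (left) from diaphragm (right). Diaphragm 3, 6 and 9 are red across most synthesis enzymes, Insig1 and Srebf2, and Abca1 is blue there.

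Of the 6 genes of SREBP control and sterol transport, 5 were lower in dura, with a median log2 fold change of -0.70. Insig1 (ENSMUSG00000045294, chr5:28071363-28078662, plus strand of GRCm38), which retains SCAP in the endoplasmic reticulum and is itself a target of SREBP2, had 75.3, 96 and 78.1 CPM in dura P6, 60.7, 77.5 and 65.3 CPM in dura P5, and 56.1, 56.3 and 54.7 CPM in dura P4. Diaphragm libraries had 178 and 164 CPM (1 and 7), 197 and 195 CPM (2 and 8), and 222, 199 and 224 CPM (3, 6 and 9). The highest dural library lay well below the lowest diaphragm library. Insig1 averaged 68.9 ± 13.9 CPM in dura and 196.7 ± 21.7 CPM in diaphragm (SD, n = 9 and 7), a log2 fold change of -1.52 ± 0.12 (SE, adjusted p = 1.54e-07). Across all 32 alternatives its log2 fold change stayed between -1.65 and -1.38. Insig2, the paralog that is not driven by SREBP2 in the same way, did not pass, at 29.3 ± 4.50 CPM in dura and 23.9 ± 3.49 CPM in diaphragm (SD, n = 9 and 7; log2 fold change 0.29, adjusted p = 0.0797). It did pass, as higher in dura, in some alternatives. Among them were upper-quartile factors, library totals, leaving out the dural P6 libraries and leaving out dura 4P6 alone.

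Srebf2 (ENSMUSG00000022463, chr15:82147181-82205379, plus strand of GRCm38), the gene of SREBP2, had 132, 129 and 135 CPM in dura P6, 98.1, 102 and 116 CPM in dura P5, and 94.6, 88.8 and 110 CPM in dura P4. Diaphragm libraries had 156 and 162 CPM (1 and 7), 167 and 173 CPM (2 and 8), and 351, 346 and 328 CPM (3, 6 and 9). No dural library reached the diaphragm range, and the 3 highest libraries stood apart from the other diaphragm libraries. The log2 fold change was -1.11 ± 0.19 (SE, adjusted p = 0.000478), and without diaphragm 3, 6 and 9 it was -0.53 (adjusted p = 0.00582). With dural libraries summed per number, Srebf2 did not pass (-1.11, adjusted p = 0.0572). Srebf1 (ENSMUSG00000020538, chr11:60199089-60222581, minus strand of GRCm38), whose product drives fatty acid genes and which is a target of LXR, had 38.4, 48 and 54.6 CPM as lowest, median and highest in dura, against 55.4, 71.6 and 96 CPM in diaphragm. The gap between dura 1P6 and diaphragm 2 was narrow, and the log2 fold change was -0.68 ± 0.12 (SE, adjusted p = 0.000646; 0.052 with dural libraries summed).

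Scap, the escort protein, averaged 40.4 ± 6.06 CPM in dura and 49.4 ± 5.47 CPM in diaphragm (SD, n = 9 and 7). Its ranges overlapped and its log2 fold change was -0.29 ± 0.10 (SE, adjusted p = 0.0403), a call lost in 20 of 32 alternatives. Stard4, which carries sterol through the cytosol, had 13.4, 15.3 and 22.7 CPM in dura, against 16.1, 25.7 and 35.1 CPM in diaphragm. It was lower, at -0.71 ± 0.15 (SE, adjusted p = 0.00211; 0.0871 with dural libraries summed), with dura 3P6 and 1P4 above diaphragm 2.

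The genes around LXR did not move together. Of the 5, 3 were lower in dura and 1 was higher. Nr1h3 (ENSMUSG00000002108, chr2:91184061-91202834, minus strand of GRCm38), the gene of LXR alpha, the receptor form enriched in macrophages and liver, had 14.2, 15.2 and 18.9 CPM in dura P6, 12.7, 13.9 and 9.41 CPM in dura P5, and 3.56, 7.76 and 5.65 CPM in dura P4. Diaphragm libraries had 48.4 and 98.8 CPM (1 and 7), 285 and 294 CPM (2 and 8), and 28.1, 29.3 and 42.1 CPM (3, 6 and 9). Every diaphragm library was above every dural one, and the spread within diaphragm was about as large as its mean. Means were 11.3 ± 4.98 CPM in dura and 117.9 ± 120 CPM in diaphragm (SD, n = 9 and 7), with a log2 fold change of -3.40 ± 0.54 (SE, adjusted p = 0.00022). Without diaphragm 2 and 8 it was -2.13 (adjusted p = 0.000717). Markers of liver and muscle were present in every diaphragm library, and endothelial markers were higher in diaphragm 1, 7, 2 and 8 than in all other libraries. The part of these markers in this and the other differences between tissues was not tested. Nr1h2, the gene of the widely expressed LXR beta, differed little, at 80.9 ± 6.05 CPM in dura and 97.6 ± 9.76 CPM in diaphragm (SD, n = 9 and 7; log2 fold change -0.27 ± 0.07, SE, adjusted p = 0.00979). With library totals it was -0.14 (adjusted p = 0.259). A processed pseudogene of Nr1h2 is annotated, so its reads carry some uncertainty.

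Abca1 (ENSMUSG00000015243, chr4:53030787-53159895, minus strand of GRCm38), the pump that loads cholesterol onto apolipoprotein A-I, was the member that was higher in dura. It had 299, 375 and 397 CPM in dura P6, 583, 824 and 1080 CPM in dura P5, and 715, 799 and 1030 CPM in dura P4. Diaphragm libraries had 377 and 427 CPM (1 and 7), 480 and 504 CPM (2 and 8), and 217, 225 and 214 CPM (3, 6 and 9). All P5 and P4 libraries lay above all diaphragm libraries, while the P6 libraries lay within the diaphragm range. Abca1 averaged 678.5 ± 285 CPM in dura and 349.2 ± 128 CPM in diaphragm (SD, n = 9 and 7), a log2 fold change of 0.96 ± 0.29 (SE, adjusted p = 0.0221). The call was lost in 5 of 32 alternatives, for example without diaphragm 3, 6 and 9 (0.63, adjusted p = 0.185), without the P5 libraries (0.79, adjusted p = 0.115) or without the P4 libraries (0.77, adjusted p = 0.116).

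Abcg1 (ENSMUSG00000024030, chr17:31057675-31117988, plus strand of GRCm38), the pump that passes cholesterol to HDL particles, did not pass, with 38, 80.3 and 139 CPM as lowest, median and highest in dura and 51.3, 79 and 154 CPM in diaphragm. Its log2 fold change was -0.18 ± 0.29 (SE, adjusted p = 0.676) and turned to 0.09 without the P4 libraries and to 0.24 without diaphragm 2 and 8. Mylip had 65.6, 88.8 and 106 CPM in dura, against 104, 129 and 156 CPM in diaphragm. Only dura 3P4, at the top of its range, overlapped diaphragm 3 and 9, at the bottom of theirs. The log2 fold change of Mylip was -0.58 ± 0.12 (SE, adjusted p = 0.00141).

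Per length, the order of the members differed between the tissues. In CPM per kilobase of merged exons, the mean level in dura was highest for Abca1 at 65.5 ± 27.5, then Mylip at 26.3 ± 4.44, Ebp at 24.9 ± 4.78, Nr1h2 at 24.1 ± 1.80 and Insig1 at 22.3 ± 4.48 (SD, n = 9). The last 4 lay within each other's spread. In diaphragm it was highest for Insig1 at 63.6 ± 7.03, then Nr1h3 at 46.9 ± 47.5, Mylip at 39.3 ± 5.79, Abca1 at 33.7 ± 12.4 and Srebf2 at 33.5 ± 13.2 (SD, n = 7), where Insig1 stood beyond the SD of Mylip, Abca1 and Srebf2 and the others lay within each other's spread. Idi1 was lowest in both tissues, at 0.25 ± 0.14 in dura and 0.63 ± 0.23 in diaphragm, in CPM per kilobase.

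The targets of SREBP2 were set against those of LXR, library by library. The 20 SREBP2 targets are the synthesis enzymes other than Ggps1, with Insig1 and Stard4, and 11 of them were lower in dura, with a median log2 fold change of -0.48. The 4 LXR targets are Abca1, Abcg1, Mylip and Srebf1, of which 2 were lower and 1 higher, with a median of -0.38. The summed level of the SREBP2 targets was 320 to 429 CPM in dura and 497 to 758 CPM in diaphragm, without overlap. Within diaphragm it was 687 to 758 CPM in libraries 3, 6 and 9, 541 to 554 CPM in 2 and 8, and 497 to 535 CPM in 1 and 7. The summed level of the LXR targets was 524 to 1300 CPM in dura and 474 to 893 CPM in diaphragm, with wide overlap.

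The SREBP2 sum divided by the LXR sum was 0.246 to 0.818 in dura and 0.605 to 1.59 in diaphragm. It was highest in diaphragm 3, 6 and 9 (1.34 to 1.59) and lowest in dura 4P5 (0.246) and 4P4 (0.265). Abca1 alone made up 44% to 85.1% of the LXR sum. Without Abca1, the LXR sum was 171 to 273 CPM in dura and 257 to 389 CPM in diaphragm, so without that gene the ranges still overlapped and diaphragm was the higher. In the libraries with the highest SREBP2 sum, diaphragm 3, 6 and 9, the summed monocyte markers were at 900 to 1200 CPM, against 111 to 259 CPM in the other diaphragm libraries, and the dendritic cell markers at 497 to 706 CPM, against 119 CPM or less in all others. The 5 proliferation markers summed to 133 to 188 CPM there, against 62.4 to 96 CPM in the other diaphragm libraries. The part of these markers in the result was not tested.

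**Figure D3:**
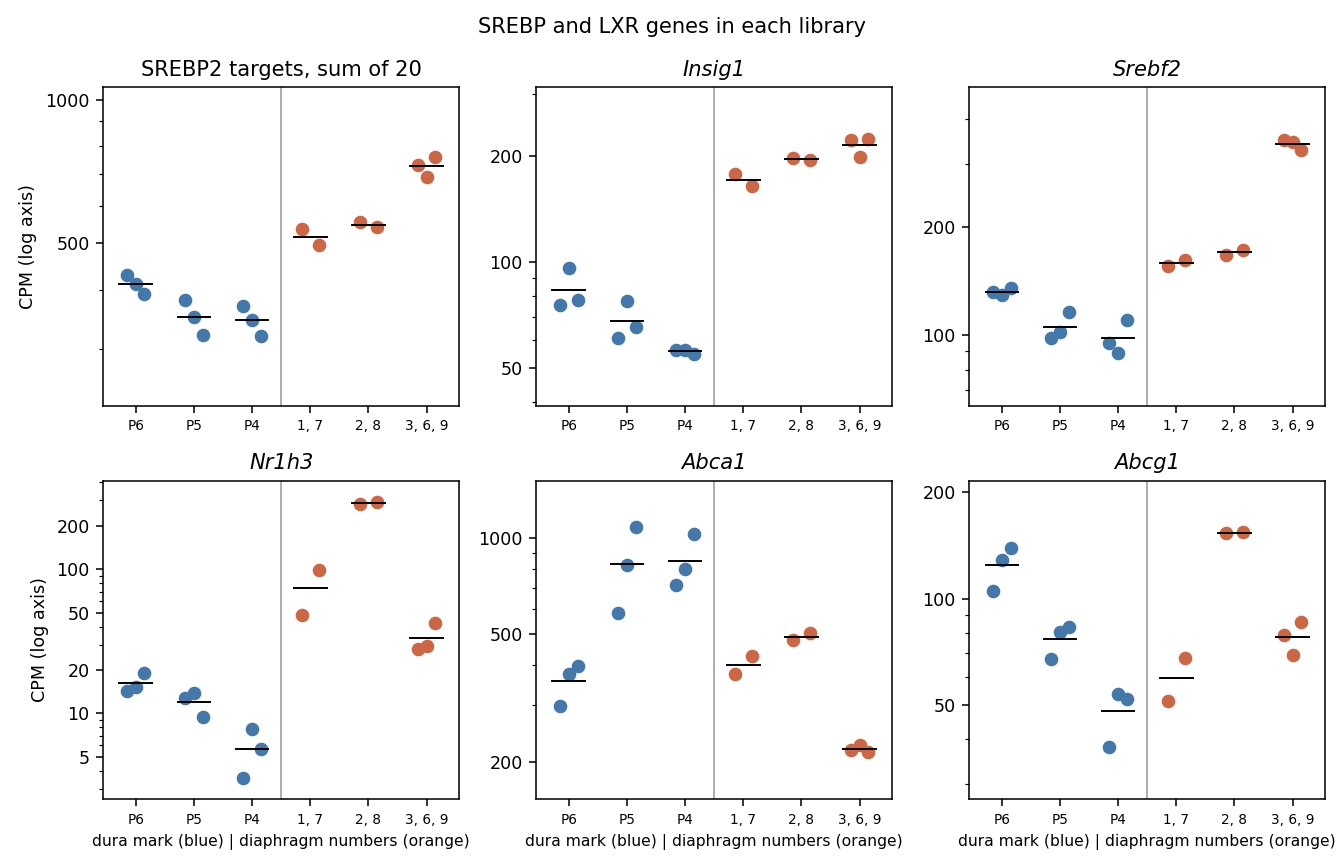
CPM on log axes in each library for the sum of the 20 SREBP2 targets and for Insig1, Srebf2, Nr1h3, Abca1 and Abcg1, with dura by mark (blue, left) and diaphragm by number set (orange, right); points are libraries and bars are means. The dural and diaphragm points do not overlap for the SREBP2 sum (320 to 429 against 497 to 758 CPM), Insig1, Srebf2 and Nr1h3, and do overlap for Abca1 and Abcg1.

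Other genes of the pathways were taken from lists that hold none of the members. These lists, like the members, were chosen with earlier results of these data known, so they are no independent check. Their counts are to be read against the 15.3% of all genes called lower and 11.2% called higher in dura. Of 12 tested targets of SREBP outside the module, 7 were lower and 1 was higher in dura, with a median log2 fold change of -0.66. Among those lower were Fasn, the fatty acid synthase (-0.88 on the log2 scale, adjusted p = 0.000455), and Elovl6, a fatty acid elongase (-1.18, adjusted p = 0.0141), both named as examples after their values were seen. Fads1, a fatty acid desaturase, was higher (0.68, adjusted p = 0.000276). Of 10 other targets of LXR, with a median of -0.54, 5 were lower and 1 was higher, namely Apoe, a carrier of exported cholesterol (0.86, adjusted p = 0.00926). The 10 genes of lysosomal release, storage and side-chain oxidation had a median of 0.06, and the share called was close to the 26.4% of all genes. Of these, 1 was lower and 2 were higher, the lysosomal exporter Npc1 (0.35, adjusted p = 0.0159) and the oxysterol-making enzyme Cyp27a1 (0.76, adjusted p = 0.00014).

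Within dura, the largest called differences between the marks of the column names were those of Nr1h3, Abcg1 and Abca1. The comparisons share 1 fit over the 9 dural libraries and share libraries with each other. Between P6 and P4, 6 of the 30 members were called, 5 higher and 1 lower in P6, against 33.3% of 13239 genes called, 16% as higher and 17.3% as lower. Between P6 and P5, 4 were called, 3 higher and 1 lower in P6, against 17.4% of all genes, 8.38% as higher and 8.98% as lower. Between P5 and P4, 2 were called, both higher in P5, against 7.35% of all genes, 3.09% as higher and 4.26% as lower. The shares of members called, 6 of 30, 4 of 30 and 2 of 30, were thus below the share of all genes in each comparison. Members whose libraries did not overlap numbered 14, 12 and 6 of 30, against 46.7%, 36% and 25.9% of all genes. With library totals in place of TMM factors the median over all genes moved to -0.135 for P6 minus P4 and -0.134 for P5 minus P4 on the log2 scale, and higher genes made up 34.8% and 22.2% of the calls there, against 48.1% and 42% with TMM factors.

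Abcg1 stepped through the marks, at 105, 129 and 139 CPM in P6, 67.4, 80.3 and 83.1 CPM in P5, and 38, 53.9 and 52.2 CPM in P4. No library of a mark overlapped those of another. The log2 fold change was 1.38 ± 0.16 for P6 minus P4 (SE, adjusted p = 3.3e-05), 0.70 ± 0.15 for P6 minus P5 (adjusted p = 0.00799) and 0.68 ± 0.15 for P5 minus P4 (adjusted p = 0.019). The P5 and P4 call was lost when P5 replicate 3 (adjusted p = 0.0756), P5 replicate 4 (0.0651) or P4 replicate 1 (0.0565) was left out. Nr1h3 averaged 16.1 ± 2.52 CPM in P6, 12.01 ± 2.34 CPM in P5 and 5.66 ± 2.10 CPM in P4 (SD, n = 3 each). It was higher in P6 than in P4 by 1.504 ± 0.28 (SE, adjusted p = 0.00133) and in P5 than in P4 by 1.07 ± 0.28 (adjusted p = 0.0372). It was higher in P6 than in P5 by 0.43, which did not pass (adjusted p = 0.326). The difference between P5 and P4 had adjusted p = 0.0516 to 0.148 when P6 replicate 3, P5 replicate 1 or 3, or P4 replicate 1 or 4 was left out, 0.0607 with library totals and 0.0557 with only these marks fitted.

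Abca1 went the other way. It averaged 357.0 ± 51.8 CPM in P6, 830.4 ± 250 CPM in P5 and 848.1 ± 163 CPM in P4 (SD, n = 3 each). It was lower in P6, with a log2 fold change of -1.24 ± 0.20 against P4 (SE, adjusted p = 0.000602) and of -1.22 ± 0.20 against P5 (adjusted p = 0.00164). P5 and P4 differed by -0.03 ± 0.20 (SE, adjusted p = 0.969). Both pumps are targets of LXR, and their ratio per length of Abca1 over Abcg1 was 2, 2.04 and 2.02 in P6, 6.09, 7.23 and 9.18 in P5, and 13.3, 10.4 and 13.9 in P4. Among diaphragm libraries the ratio was 5.18 and 4.43 in 1 and 7, 2.21 and 2.31 in 2 and 8, and 1.93, 2.29 and 1.76 in 3, 6 and 9. P6 libraries were thus close to diaphragm 2, 8, 3, 6 and 9 in this ratio, and P4 libraries were highest of all 16.

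On the synthesis side, Ebp, the sterol isomerase, had 71, 74.2 and 68.3 CPM in P6, 57.1, 56.1 and 51 CPM in P5, and 47.4, 47.4 and 45.5 CPM in P4. P6 libraries were the highest without overlap, by 0.61 ± 0.10 over P4 (SE, adjusted p = 0.000364) and by 0.38 ± 0.09 over P5 (adjusted p = 0.0149). The P6 and P5 call was lost without P6 replicate 3 (adjusted p = 0.0703), P5 replicate 3 (0.0554) or P5 replicate 4 (0.0744). Insig1 was higher in P6 than in P4 by 0.58 ± 0.12 (SE, adjusted p = 0.0031) and Srebf2 by 0.44 ± 0.105 (SE, adjusted p = 0.00663), in both with every P6 library above every P4 library. Srebf2 was also higher in every P6 library than in every P5 library, by 0.32 ± 0.105 (SE), which did not pass (adjusted p = 0.0534) but passed in 6 of 17 alternatives, among them DESeq2 (0.0276), upper-quartile factors (0.0484) and the dural number as a replicate block (0.00791). Insig1 differed between P6 and P5 by 0.296 ± 0.12 (SE, adjusted p = 0.128), and passed under the block (0.0364). Fdps was higher in P6 than in P5 by 0.93 ± 0.29 (SE, adjusted p = 0.0463), a call lost in 10 of 17 alternatives. These were upper-quartile factors (adjusted p = 0.0504), voom (0.0587), no filter (0.106) and leaving out P6 replicate 1 (0.152) or 3 (0.105), P5 replicate 1 (0.0862), 3 (0.183) or 4 (0.0882), or P4 replicate 3 (0.062) or 4 (0.0535).

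The remaining panel genes did not pass between marks in the main comparison. Hmgcs1 averaged 27.3 ± 6.07 CPM in P6, 25.6 ± 4 CPM in P5 and 32.5 ± 2.97 CPM in P4, and Sqle 12.8 ± 2.69, 9.46 ± 3.07 and 9.10 ± 0.38 CPM in the same order (SD, n = 3 each). Scap averaged 42.8 ± 0.94 CPM in P6, 34.6 ± 2 CPM in P5 and 43.7 ± 8.12 CPM in P4. Srebf1 was at 51.1 ± 3.02, 42.4 ± 4.59 and 45.3 ± 5.68 CPM, and Mylip at 77.5 ± 14.9, 84.2 ± 16.8 and 93.5 ± 11.1 CPM, again as P6, P5 and P4. Mylip passed as lower in P6 than in P4 with the dural number as a replicate block (-0.28 on the log2 scale, adjusted p = 0.0304). Nr1h2 stayed at 76.4 ± 1.88 CPM in P6, 84.8 ± 6.95 CPM in P5 and 81.6 ± 6.39 CPM in P4. The SREBP2 sum, for the libraries numbered 1, 3 and 4, was 429, 411 and 392 CPM in P6, 381, 350 and 321 CPM in P5, and 369, 345 and 320 CPM in P4. Number 1 was the highest and number 4 the lowest in each mark.

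Markers of other cells and states differed between the marks as well. Monocyte markers summed to 1490 to 1660 CPM in P6, 251 to 281 CPM in P5 and 42.1 to 117 CPM in P4, and proliferation markers to 154 to 159, 39.2 to 44.6 and 19.3 to 30.2 CPM. Fibroblast markers summed to 238 to 378 CPM in P6, 563 to 754 CPM in P5 and 2010 to 3650 CPM in P4. The part of these markers in the differences between marks was not tested.

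**Figure D4:**
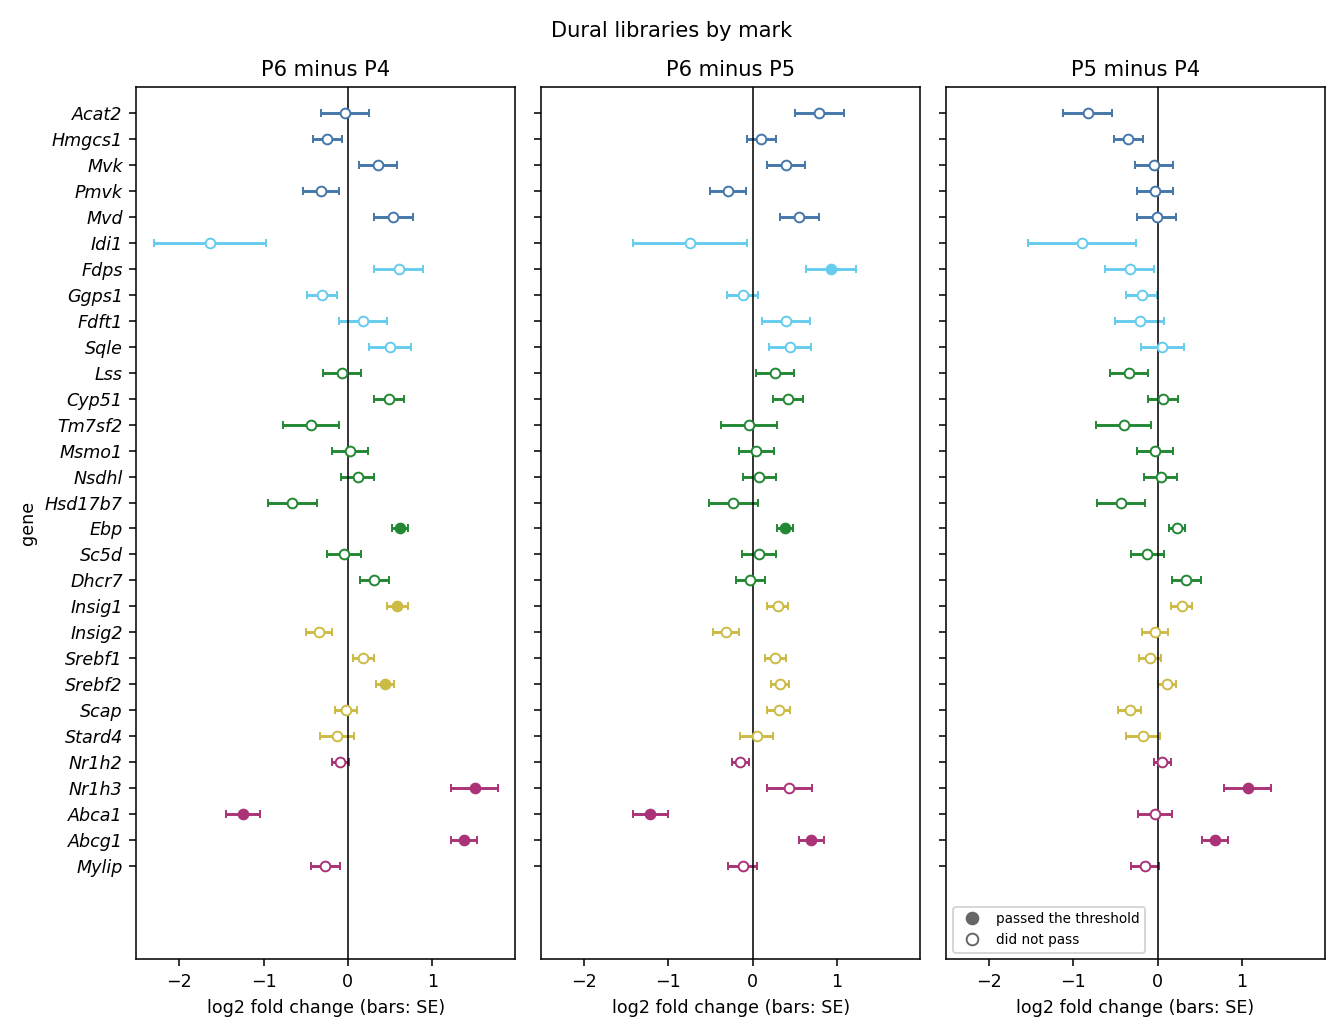
Log2 fold change of each member between dural marks (P6 minus P4, P6 minus P5, P5 minus P4) with its standard error, over 3 libraries a mark and coloured by role as in the dura against diaphragm plot; filled points passed the edgeR threshold. Abca1 lies at -1.24 and -1.22 in the P6 panels and Abcg1 at 1.38 and 0.70, while most enzymes have open points near 0.

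Between the diaphragm number sets, the module took 3 different forms, given here as values. Libraries 3, 6 and 9 had the highest Srebf2, Fdps, Fdft1, Sqle, Cyp51 and Ebp and the lowest Abca1 (mean 219 CPM). Libraries 2 and 8 had the highest Nr1h3 (mean 289 CPM) and Abcg1 (153 and 154 CPM) with an intermediate SREBP2 sum. Libraries 1 and 7, where fibroblast markers were highest, had the lowest SREBP2 sum and the lowest mean Abcg1 (59.6 CPM). Insig1 was above every dural library in all 3 sets, at means of 171 CPM in 1 and 7, 196 CPM in 2 and 8, and 215 CPM in 3, 6 and 9.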

How the data were processed

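Macrophages sorted in bulk from mouse dura and diaphragm were sequenced with an unstranded kit as 75-nucleotide single-end reads, as the labels' protocols state. GRCm38, STAR 2.4.0j, featureCounts and DESeq2 1.20.0 are listed, without roles, per the submitters' processing notes. The values that the authors deposited are counts per gene. The table is called normalised but was read as raw counts, because it holds whole numbers whose sums vary widely between columns. It has 24 columns, 9 dural and 15 diaphragm, tied by name to the tissue only. In 6 pairs of diaphragm columns of the same number, counts differed by little more than sampling noise (chi-square over degrees of freedom 1.008 to 1.169, against 11.4 or more between other diaphragm columns), and each pair was summed and counted as 1 library. Diaphragm 4 and 5, with fewer than 10000 counts, were left out.

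Dura was compared with diaphragm over 16 libraries, and the dural marks were compared over 9, in edgeR 4.0.16 under R 4.3.3 with the quasi-likelihood test (TMM factors, filterByExpr, two-sided, Benjamini-Hochberg threshold 0.05), which tested 13136 and 13239 genes. The test was also run on simulated counts. These held no subsets within a tissue and no shared dural number, so that run cannot speak to those features. Biological coefficients of variation were 0.489 in the tissue fit, whose groups pool the marks and the number sets, and 0.232 in the fit of the marks. CPM used the TMM factors of the tissue fit, lengths came from GENCODE merged exons, and promoter windows from RefSeq. Same-numbered dural libraries correlated at 0.048 to 0.225 in their deviations from mark means, and different-numbered ones at -0.196 to 0.078. Of the 9 libraries, 8 correlated best with one of their own number, so the libraries of a number may be related. No label states such a pairing. The main tests took the dural libraries as independent, and the number as a replicate block was an alternative. Alternatives were other scalings, no filter, DESeq2 1.42.0, limma-voom (limma 3.58.1), the dural number as a random term, dural libraries summed, sets or marks left out, and each library left out. The results of some genes in the lists outside the module are not reported here. Every member is named at least in passing; full values went to called members without overlap and to a fixed panel. The members, lists and panel were chosen with earlier results of these data known. Low counts limit precision for Idi1 and Ggps1, and count-based errors cover these libraries only.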

Additional observations from a re-analysis of the deposited data

Results flagged for a closer look

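Stard4, the cytosolic sterol carrier, was at 22.7 CPM in dura 1P4, the highest of the 9 dural libraries. The next highest was 16.5 CPM in dura 3P6. The gap between them was 0.667 of the whole dural range, above the critical value of 0.493 for 9 samples. Of 60 groups of values examined in this way, 30 members in each tissue, this was the 1 above its critical value. Chance gives about 1 in 20, so 1 of 60 is not more than chance would give. The critical value also takes the dural libraries as 1 group, although they carry different marks.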

How the results depend on the processing

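Dura against diaphragm was recomputed under 32 alternatives. Insig1, Fdps, Mvd, Nr1h3 and Mylip were called lower in each of them. The main test called 1 member higher, 17 lower and 3472 genes. Members higher were 2 with upper-quartile factors, 2 with library totals, 2 without the P6 libraries, 0 without P5, 0 without P4, 0 with dural libraries summed per number, and 0 without dural P4 and diaphragm 1 and 7, an alternative chosen after seeing the data. Members lower were 5 with dural libraries summed (1259 genes called) and 10 without diaphragm 3, 6 and 9 (2847 genes called). Without diaphragm 3, 6 and 9, the member called higher was Nsdhl and not Abca1. Without P5, 2143 genes were called. Leaving out each library gave 1 to 2 higher, 15 to 17 lower and 2969 to 3585 genes. The value of Abcg1 turned to 0.09 without P4 and 0.24 without diaphragm 2 and 8. Between P6 and P4, leaving out each library gave 6 to 7 members and 3717 to 4531 genes, and on the log2 scale Stard4 ranged from -0.273 to 0.122 and Scap from -0.143 to 0.128. Between P6 and P5 (4 members, 2299 genes) the range was 2 to 4 members and 1480 to 2503 genes. Hmgcs1 ranged from -0.084 to 0.203 and Stard4 from -0.007 to 0.09. Between P5 and P4 (2 members, 973 genes) the range was 0 to 2 members and 544 to 1136 genes, with 1 member under library totals, 1 with only these marks fitted, and 1587 genes without a filter. With library totals Sqle turned to -0.069, Srebf2 to -0.014 and Nr1h2 to -0.069, and with voom Sqle turned to -0.006. Leaving out each library gave -0.193 to 0.266 for Sqle, -0.318 to 0.077 for Stard4, 0 to 0.12 for Nr1h2, -0.26 to 0.181 for Abca1 and -0.26 to 0.009 for Mylip. None of the values that changed sign was called. With the dural number as a replicate block, 8 members were called between P6 and P4 (Cyp51 and Mylip added), 7 between P6 and P5 (Cyp51, Insig1 and Srebf2 added) and 2 between P5 and P4, with 5116, 3070 and 1576 genes. The libraries share only a number, and 8 of 9 correlate best with one of their own number, a hint from the data and not the design, with same-number correlations of 0.048 to 0.225 and different-number ones of -0.196 to 0.078. The cause of these changes was not tested.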

Other observations

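Diaphragm columns 4 and 5, which had fewer than 10000 counts in total and entered no comparison, held 2 and 3 counts over all 30 members.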
